A study of Mus musculus with 2 samples.

Results

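The 46 genes described here encode AMP-activated protein kinase (AMPK), the machinery that forms autophagosomes, the receptors that load them, and lysosomal proteins. They were chosen by name from 37074 gene names on a microarray, and every non-control probe that carried such a name was taken, 105 probes in all. Expression was compared between MCMs transfected with siRNA-*Ppp2r5d*, against the B56δ regulatory subunit of protein phosphatase 2A (PP2A), and MCMs transfected with siRNA-NC, a negative control. MCMs are mouse cardiomyocytes bought as cells and used after passaging, so each array stands for 1 dish of cultured cells and not for an animal. Both dishes received Lipofectamine RNAiMAX, were moved to glucose-free medium and were lysed 64 h after transfection. Glucose withdrawal is therefore shared by both arrays, whereas dish, RNA preparation and hybridization differ along with the siRNA and cannot be told apart from it. With 1 array per condition there was no replicate, no test was possible, and the values describe these dishes.

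Autophagy encloses cytoplasm and organelles in a double membrane and delivers them to lysosomes for breakdown, and in heart muscle it supplies fuel and removes worn mitochondria when nutrients are short. AMPK, a kinase of α, β and γ subunits, is activated when ATP falls and phosphorylates ULK1 to start the process, after which a phosphatidylinositol 3-kinase marks the site and a conjugation system attaches LC3 and GABARAP proteins to the growing membrane. TFEB and TFE3 are transcription factors that are held in the cytoplasm while phosphorylated and, once in the nucleus, act on promoters of many lysosomal and autophagy genes. Much of this control works through phosphorylation, which an mRNA array does not measure.

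*Ppp2r5d* itself had an intensity of 4701 with siRNA-NC and 676 with siRNA-*Ppp2r5d*, a log2 fold change of -2.61 or 6.08-fold lower. All fold changes are siRNA-*Ppp2r5d* minus siRNA-NC on the log2 scale after the 75th percentile of each array, an intensity of 593 and 519, was subtracted. Intensities are printed before this scaling, so an equal intensity on both arrays corresponds to a log2 fold change of 0.19. The scanner's own error gave each measured member probe an error of 0.20 to 0.31 on the log2 fold change, while repeated spots of a probe had a median SD of 0.039. Neither covers differences between cultures. Of 14 cardiomyocyte markers, 9 were measured on both arrays, and *Myh6*, *Actn2*, *Myl2*, *Ryr2* and *Pln* were not. Of the 9, 7 lay above 0 and 2 below, *Tnni3* (-0.19) and *Actc1* (-0.098), with a median log2 fold change of 0.23. The highest values were in *Csrp3* (1.93), *Myl3* (0.91) and *Ttn* (0.89). *Csrp3* and *Myl3* were dim, at 37.7 and 126 and at 40.4 and 66.2. The summed intensity of the 9 markers, of which *Actc1* made up most, was 10158 with siRNA-NC and 9577 with siRNA-*Ppp2r5d*. Smooth muscle markers were measured for 5 of 5 genes, with *Cnn1* at 2.41, *Tagln* at 0.85 and 3 below 0, and with a summed intensity, mostly of *Acta2*, of 147494 and 134239. Fibroblast markers were measured for 7 of 8 genes, 3 above and 4 below 0 (302550 and 282795), and endothelial markers for 1 of 6. The fibroblast values ran from -0.31 (*Col1a2*) to 1.08 (*Lum*), and those of the macrophage markers from -0.68 (*Lyz2*) to 0.79 (*Aif1*). Macrophage markers were measured for 6 of 8 on the array, 4 above and 2 below 0, with a median of 0.042 (10317 and 8721), and *Adgre1* and *Mrc1* were not above background on either array. The part of these cell types in the results was not tested.

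All 46 members were measured, meaning that at least 1 probe cleared background by the scanner's flag in both cultures, and the differences between the arrays were small. No member was at least 2-fold higher or lower, against 0.885% and 1.07% of the 20350 genes measured. At a threshold of 1.5-fold, 1 member was higher (*Prkaa2*) and 1 lower (*Prkag2*), against 3.36% and 4.64% of all genes, so the share of members past either threshold was near that of the array as a whole. The median log2 fold change of the members was 0.056, with 30 above 0 and 16 below, beside 0.026 for all genes, of which 54.2% were above 0. Of the members, 15 were within 0.1 of 0, 10 were at least 0.2 above it and 7 at least 0.2 below it.

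The direction held under the main setting and the 11 alternatives of scaling, filtering and probe choice for 20 of the 46 members. The 11 that stayed above 0 were *Prkaa2*, *Atg3*, *Map1lc3b*, *Gabarap*, *Gabarapl1*, *Gabarapl2*, *Sqstm1*, *Bnip3l*, *Lamp1*, *Ctsb* and *Ctsd*. The 9 that stayed below 0 were *Prkab1*, *Prkab2*, *Prkag2*, *Prkag3*, *Atg14*, *Atg9a*, *Atg5*, *Atg7* and *Atg10*, although *Prkag3* had no value under the stricter filter on dim probes. For the other 26 members the side of 0 depended on the setting. These alternatives are not independent checks. The deposited log2 table of the authors repeats quantile normalization, and counting bounds cannot move a member, since all 46 were measured. For the 16 members with 1 measured probe, reading the probe of highest signal changes nothing either.

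**Figure D1:**
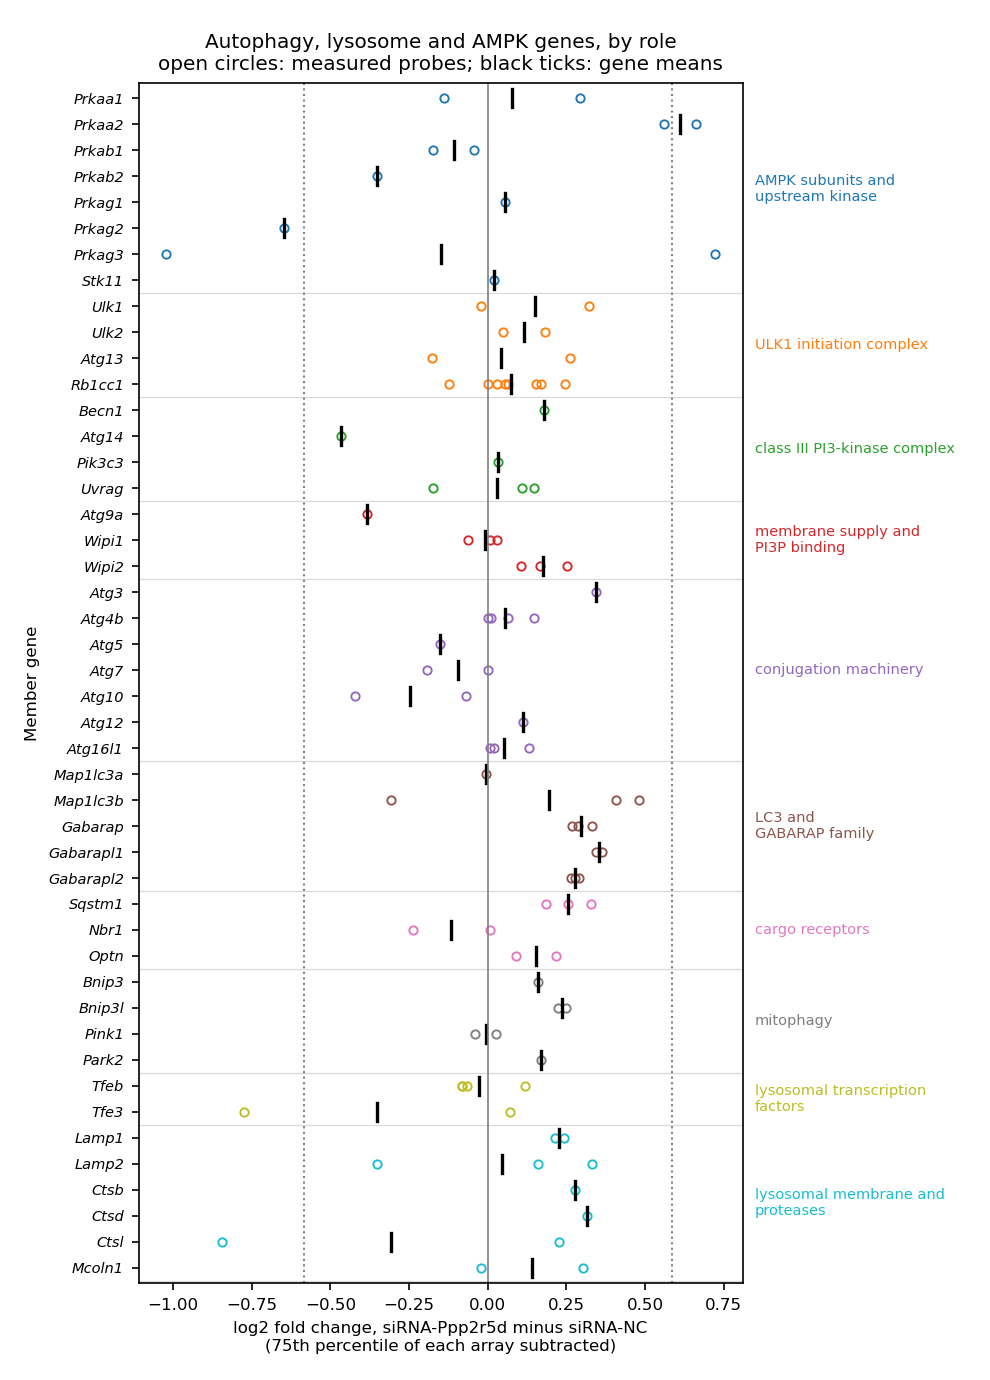
Log2 fold change (siRNA-*Ppp2r5d* minus siRNA-NC, horizontal axis) of each of the 46 member genes, ordered by role. Open circles are probes well above background on both arrays, black ticks are the gene means and dotted lines mark 1.5-fold; *Prkaa2* at 0.61 and *Prkag2* at -0.65 are the gene means outside the lines, and the GABARAP genes form a tight group near 0.3.

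Among the AMPK genes, the catalytic subunit *Prkaa2* (α2, the main catalytic isoform of heart and skeletal muscle) was higher and the regulatory subunit *Prkag2* (γ2, whose mutations cause a glycogen storage cardiomyopathy) was lower. The bright probe of *Prkaa2* had an intensity of 743 with siRNA-NC and 1029 with siRNA-*Ppp2r5d*, and the dim probe 34.9 and 45.1. Both probes were higher, by 0.66 and 0.56, and the mean of 0.61 corresponds to 1.53-fold. The dim probe crosses an intron, since its 60 bases map to an interval of 428 bases on the minus strand, chr4:104708932-104709359 of build mm9. It is shown because it reads a spliced transcript at a place apart from the bright probe.

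Prkaa2 probe: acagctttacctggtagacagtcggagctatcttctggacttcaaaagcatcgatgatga

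*Prkag2* had an intensity of 2140 with siRNA-NC and 1195 with siRNA-*Ppp2r5d* at its measured probe, a log2 fold change of -0.65 or 1.57-fold lower. Its other probe was at 15.3 and 6.53 and was well above background with siRNA-NC alone. That probe had a scanner error of 0.695 on the log2 fold change, and the value of *Prkag2* rests on its 1 measured probe. *Prkaa2* ranged from 0.43 to 0.66 and *Prkag2* from -0.84 to -0.62 over all settings.

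The other AMPK genes differed less, with the β subunits below 0 and the probes of *Prkag3* in disagreement. *Prkab2* (β2, the muscle isoform that binds glycogen) had intensities of 923 and 633, a log2 fold change of -0.35. *Prkab1* (β1) had 867 and 736 at its bright probe and 166 and 129 at the dim one, with a mean log2 fold change of -0.11. The widely expressed *Prkag1* (γ1) had 13528 and 12304, a log2 fold change of 0.056 that lay below 0 under 4 of the 11 alternatives. *Prkaa1* (α1) was split between a bright probe, 3238 and 3472 (0.29), and a dim probe, 241 and 191 (-0.14), for a mean of 0.078. *Prkag3* (γ3, typical of skeletal muscle) was split further. One probe read 93.8 with siRNA-NC and 40.4 with siRNA-*Ppp2r5d* (-1.02), another read 28.3 and 40.8 (0.72), and the last was not above background. Their mean of -0.15 therefore describes neither probe. *Stk11*, which encodes the upstream kinase LKB1, had intensities of 2243 and 1988, a log2 fold change of 0.019. The α2 and γ2 genes were the extremes, and no AMPK gene lay outside 2-fold.

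The ULK1 complex, which receives the AMPK signal, differed little. *Ulk1* had 12488 and 13672 at the bright probe (0.32) and 34.7 and 29.9 at the dim one (-0.02), for a mean of 0.15. *Atg13*, the adaptor of the complex, was likewise split between a bright probe with 4095 and 4298 (0.26) and a dim one with 42.6 and 33.0 (-0.18). *Ulk2* was at 0.12. The scaffold *Rb1cc1* (FIP200) was read by 8 probes between -0.12 and 0.25, of which 7 were above 0, and its mean was 0.075. Its brightest probe read 2912 and 2837 (0.16), and the 1 probe below 0 read 205 and 165 (-0.12). All 4 genes of the complex lay above 0, except under spike-in scaling, where all 4 lay below it.

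In the phosphatidylinositol 3-kinase complex, *Atg14* differed from its partners. *Atg14* directs the kinase to the site where autophagosomes form, and its intensity was 1275 with siRNA-NC and 807 with siRNA-*Ppp2r5d*, a log2 fold change of -0.47 from 1 probe. Under the alternatives it ranged from -0.65 to -0.43. *Becn1* was at 0.18 and the catalytic subunit *Pik3c3* at 0.032. *Uvrag*, which takes the place of *Atg14* in a second complex at endosomes, had 8142 and 7896 (0.15), 240 and 186 (-0.17), and 26.4 and 24.9 (0.11) at its 3 probes. Each partner was thus closer to 0 than *Atg14*.

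*Atg9a*, the membrane protein whose vesicles seed the autophagosome, had intensities of 891 and 597, a log2 fold change of -0.39 from 1 probe. The proteins that read the kinase's lipid product showed no such difference. *Wipi2* was at 0.17, with its 3 probes between 0.10 and 0.25. *Wipi1* was at -0.0083, with probes at 14148 and 12449 (0.0082), 1034 and 867 (-0.063), and 240 and 214 (0.030).

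The conjugation genes had no common direction. *Atg3*, the E2-like enzyme that passes LC3 to its lipid, had intensities of 13836 and 15385, a log2 fold change of 0.35, and it was the member of this group farthest above 0. *Atg7*, the E1-like enzyme that acts before it, was at -0.096, and its probes read 1805 and 1382 (-0.19) and 592 and 518 (0.0014). *Atg10*, the E2-like enzyme for *Atg12*, was at -0.25 from probes of 370 and 309 (-0.07) and 257 and 168 (-0.42). *Atg5* was at -0.15. The protease *Atg4b*, *Atg12* and *Atg16l1*, the partner of the ATG12-ATG5 conjugate, were at 0.056, 0.11 and 0.053. The group median was 0.053, with 4 genes above and 3 below 0.

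Of the LC3 and GABARAP genes, which encode the ubiquitin-like proteins that coat the autophagosome membrane, 4 of 5 were higher with siRNA-*Ppp2r5d* in all settings, and the group had the highest median of the 10 role groups, 0.28 or between 0.098 and 0.31 under 6 scalings. With no filter on dim probes the cargo receptors ranked above it, at 0.26 against 0.23. *Gabarapl1* had intensities of 40704 and 45794 at its bright probe (0.36) and 1442 and 1602 at the other (0.34). *Gabarap* had 52601 and 55370 (0.27), 270 and 297 (0.33), and 84.5 and 90.2 (0.29). *Gabarapl2* had 12875 and 13668 (0.28), 7430 and 7958 (0.29), and 33.7 and 35.4 (0.26), and its remaining probe was not above background. The 8 measured probes of these 3 genes lay between 0.26 and 0.36, from the dimmest to the brightest, which is a narrower range than the error of 1 probe.

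*Map1lc3b*, the LC3 gene whose protein is the usual marker of autophagosomes, had probes that disagreed. It read 18570 with siRNA-NC and 22658 with siRNA-*Ppp2r5d* (0.48), and 6363 and 7388 (0.41), but the dim probe read 175 and 124 (-0.31). The mean was 0.19 and the probe of highest signal gave 0.48. *Map1lc3a* was the member of the family nearest to 0, with 1953 and 1702, a log2 fold change of -0.0059.

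**Figure D2:**
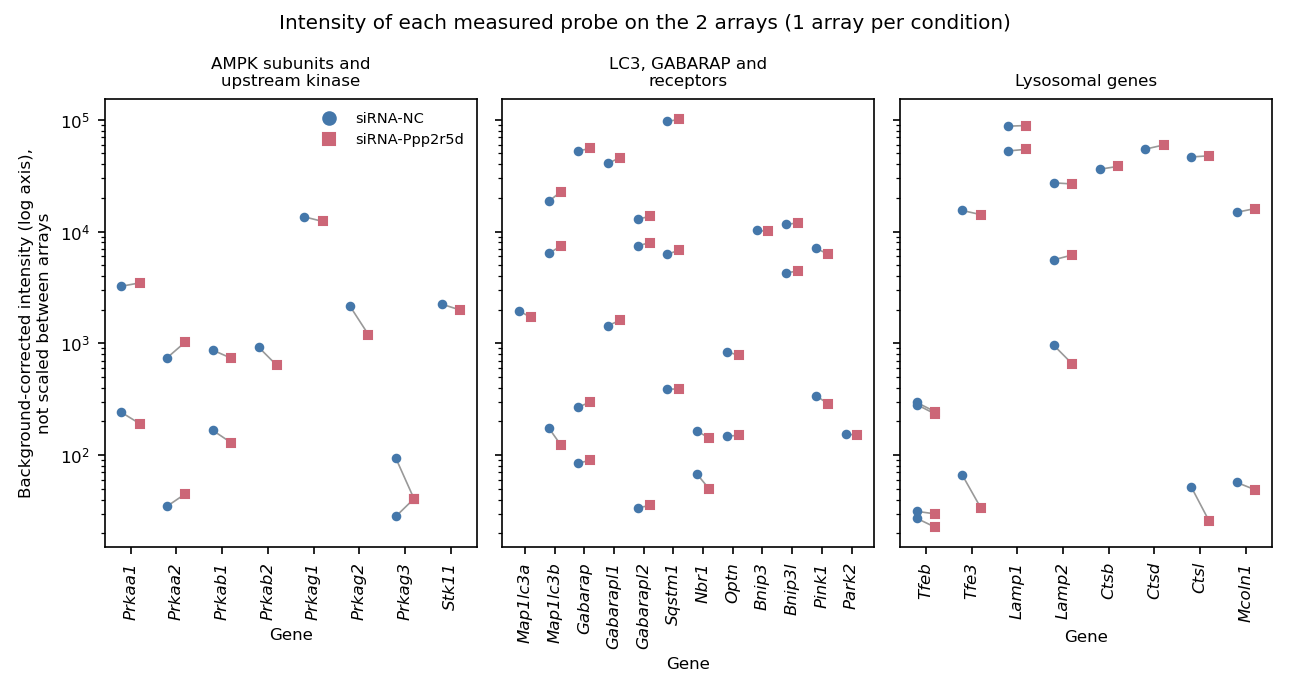
Background-corrected intensity (log axis, not scaled between arrays) of each measured probe with siRNA-NC (blue circles) and siRNA-*Ppp2r5d* (red squares) for AMPK genes, for LC3, GABARAP and receptor genes, and for lysosomal genes. A line joins the values of 1 probe, and lines of *Prkaa2* slope up and that of *Prkag2* slopes down from 2140 to 1195. Those of *Prkag3*, *Prkaa1*, *Map1lc3b*, *Sqstm1*, *Optn*, *Lamp2*, *Ctsl* and *Mcoln1* slope both ways.

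Among the cargo receptors, which bind ubiquitin on one side and LC3 proteins on the other, *Sqstm1* (p62) was higher at every probe. Its 3 probes read 96534 with siRNA-NC and 100898 with siRNA-*Ppp2r5d* (0.26), 6236 and 6851 (0.33), and 391 and 388 (0.18), with a mean of 0.26. *Optn* had 840 and 781 (0.089) and 148 and 150 (0.22), with a mean of 0.15. *Nbr1* had 163 and 143 (0.007) and 67.3 and 50 (-0.24), with a mean of -0.12, and its last probe was not above background. The position of *Nbr1* relative to 0 changed under 3 of the alternatives, and that of *Optn* under spike-in scaling.

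Of the mitophagy genes, those of the receptors that sit in the outer mitochondrial membrane were slightly higher. *Bnip3l* (NIX) had 11635 and 11888 (0.22) and 4266 and 4435 (0.25), and *Bnip3* had 10244 and 10009, a log2 fold change of 0.16 that was -0.02 under spike-in scaling. The kinase *Pink1*, which marks damaged mitochondria, had 7071 and 6305 (0.027) and 340 and 289 (-0.04), with a mean of -0.0065. *Park2*, the ubiquitin ligase recruited by *Pink1*, was read by 1 of its 6 probes, with 154 and 151 (0.17). The other 5 probes were not above background, so its value rests on a minority of the design.

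The lysosomal transcription factors were not higher. *Tfeb* was read by 4 dim probes, at 296 and 245 (-0.083), 283 and 234 (-0.081), 31.4 and 29.8 (0.12), and 27.2 and 22.7 (-0.065). Their mean was -0.027 and crossed 0 under 5 of the alternatives. *Tfe3* was at -0.35, but its bright probe read 15416 and 14166 (0.071) and only the dim one, 66.1 and 33.9, gave -0.77. With the bright probe alone the value lay above 0. The dim probe lies at chrX:7342667-7342726 of mm9 on the plus strand, and it is shown because the low value of *Tfe3* rests on it.

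Tfe3 probe: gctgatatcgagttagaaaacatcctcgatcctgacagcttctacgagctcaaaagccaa

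Of the lysosomal membrane and protease genes, 5 of 6 lay above 0, with a median of 0.18. Under quantile normalization 4 of 6 did, with a median of 0.088, and under spike-in scaling 3 of 6, with a median of 0.004. Most of these genes have a bright probe, and probes of at least 10000 had a median of 0.15 over all genes. *Lamp1*, the most abundant membrane glycoprotein of the lysosome, had 87527 and 88748 (0.21) and 52566 and 54375 (0.24). The aspartic protease *Ctsd* had 54543 and 59452 (0.32), and the cysteine protease *Ctsb* had 36046 and 38240 (0.28), each from 1 probe. The calcium channel *Mcoln1* had 14857 and 16046 (0.30) and 56.9 and 49.0 (-0.02), with a mean of 0.14. *Lamp2*, whose loss causes Danon cardiomyopathy, had 27254 and 26636 (0.16), 5591 and 6157 (0.33), and 958 and 656 (-0.35), so that its mean was 0.046 and lay below 0 under 4 alternatives. The probes of *Lamp2* thus spanned the range of the gene means in this group.

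*Ctsl*, another cysteine protease, was at -0.31, but that value joins a well measured probe to a poor one. The bright probe had repeated spots, and over the 9 spots free of outliers on both arrays it read 45799 to 46865 with siRNA-NC and 46600 to 48461 with siRNA-*Ppp2r5d*. The intensities of the arrays overlapped before scaling. After scaling every spot lay above 0, at 0.20 to 0.27, with a mean of 0.23 ± 0.025 (SD over spots). Equal intensity on both arrays alone gives 0.19. The 315 probes of all genes near this brightness, a log2 intensity of 15.5, had a median of 0.16. Their 10th and 90th percentiles were -0.018 and 0.26, so the mean of this probe lay between them. The SD over spots does not cover this spread between probes. The dim probe had 1 spot, which read 52.3 and 25.5 (-0.84). With the probe of highest signal *Ctsl* lay at 0.23, close to *Lamp1* and *Ctsb*.

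TFEB and TFE3 bind an E-box, CACGTG, that sits within a longer motif of many lysosomal promoters. RefSeq promoter windows of build GRCm38.p6, from 250 bases before to 50 after a gene start, were found for 37 members (*Park2* under its present symbol) and numbered 43. CACGTG, which reads the same on both strands, was present in 9 of these 43 windows or 20.9%, beside 7.15% of all 32851 windows. TCACGTGA, a longer form that holds it, was present in 3 windows or 6.98%, beside 0.974% of all. The 9 genes with CACGTG were *Atg3*, *Atg5*, *Atg7*, *Atg14*, *Bnip3*, *Ctsd*, *Ctsl*, *Lamp1* and *Mcoln1*, and their log2 fold changes ran from -0.47 to 0.35 with a median of 0.14, beside a median of 0.044 for members with a window and no match. In the list of other pathway genes described further on, 23 genes held CACGTG, of which *Rubcn* is not a gene name of the array. The others of the 23 had a median of 0.091, beside 0.0905 for genes without it. A letter match is not a binding site, and genes on both sides of 0 held one. The 3 windows with TCACGTGA belonged to genes above 0, *Atg3* at 0.35, *Ctsd* at 0.32 and *Mcoln1* at 0.14, the last of which lay below 0 under spike-in scaling. The 8 other pathway genes with TCACGTGA ran from -0.095 (*Cln3*) to 0.73 (*Nrbf2*), with a median of 0.25 beside 0.087 for those without it. With siRNA-NC the brightest probes of the 3 members read 13836, 54543 and 14857, and those of the 8 other genes 551 (*Cln3*) to 55254 (*Gla*). Probes of at least 10000 had a median of 0.15 and a lower quartile of 0.047 over all genes, and all 20 member probes there lay above 0. Whether motif or brightness goes with these values was not tested. Of each of the 3 member windows, only a stretch around the motif and upstream of the start is printed. It runs 5′ to 3′ on the strand of the gene, with TCACGTGA in capitals. Atg3 is chr16:45158711-45158810 on the plus strand, Ctsd is chr7:142387873-142387972 on the minus strand and Mcoln1 is chr8:3500427-3500518 on the plus strand.

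Atg3 promoter: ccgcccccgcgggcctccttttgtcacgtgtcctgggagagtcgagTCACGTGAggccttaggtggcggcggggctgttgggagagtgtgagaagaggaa
Ctsd promoter: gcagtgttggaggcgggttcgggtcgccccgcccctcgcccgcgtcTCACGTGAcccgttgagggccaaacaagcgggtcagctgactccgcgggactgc
Mcoln1 promoter: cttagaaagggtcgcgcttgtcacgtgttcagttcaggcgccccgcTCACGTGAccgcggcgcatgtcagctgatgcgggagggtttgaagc

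The motif starts 72 bases before the annotated start in *Atg3*, 99 in *Ctsd* and 46 in *Mcoln1*. In *Atg3* and *Mcoln1* a further cacgtg stands upstream of it in lower case. *Ctsd* also holds a further CACGTG, 245 bases before the start, which lies outside the printed stretch.

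Brightness moved with the fold change, for the members as for all probes. Among probes with a mean intensity of at least 10000, the median log2 fold change was 0.15 over 3036 probes of all genes and 0.25 over 20 member probes. All 20, both probes of *Lamp1* among them, lay above 0. So did most probes of all genes in this class, whose lower quartile was 0.047. Between 1000 and 10000 the median was 0.051 for all probes and 0.16 for 25 member probes, and between 200 and 1000 it was -0.0061 and 0.002 for 27. In the brightest class the member probes remained above all probes after quantile normalization, which levels the trend, with medians of 0.097 and 0.0085. There 17 of the 20 were above 0, and the quartiles of all probes were -0.075 and 0.081. Whether brightness or expression sets the remainder was not tested.

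**Figure D3:**
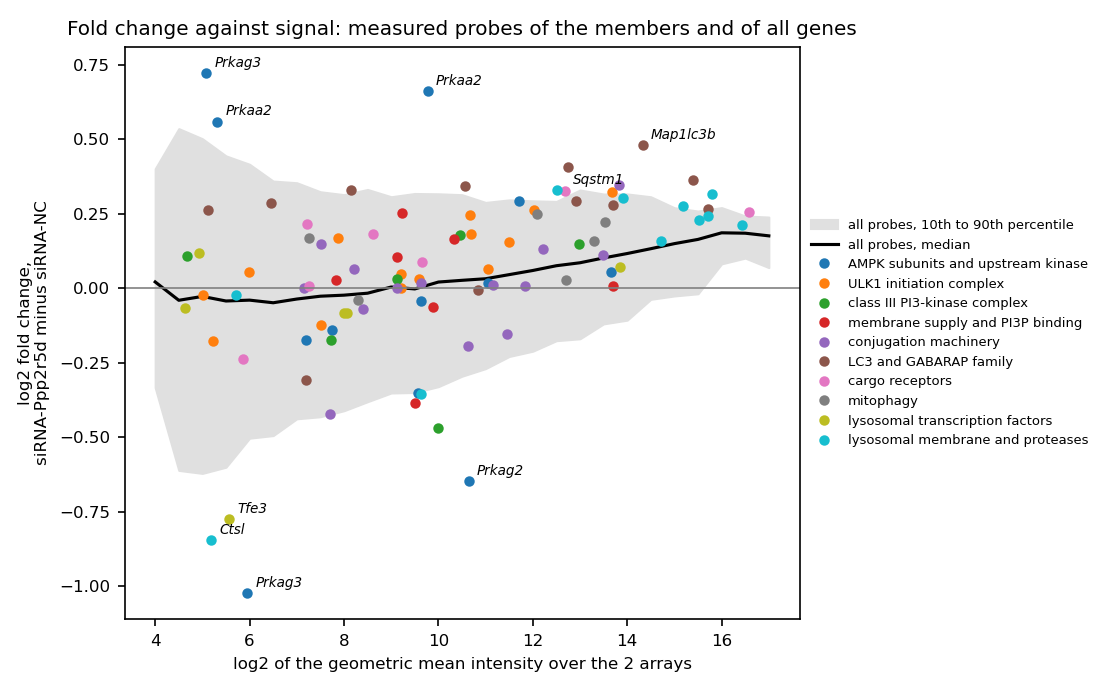
Log2 fold change (vertical axis) against the log2 of the mean intensity over both arrays (horizontal axis) for measured member probes, coloured by role. The black line is the median of all probes and the grey band their 10th to 90th percentile; the line climbs with intensity, and most bright member probes lie above it.

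Within genes the pattern was seen in the members and was slight over all genes. In 22 of 30 members with several measured probes (73.3%) the brightest probe had a higher log2 fold change than the dimmest, beside 53.3% of 7167 genes. The median difference was 0.087 for members and 0.016 for all. Probes lay on both sides of 0 in 16 of the 30 members (53.3%, beside 41.0% of all genes), and differed by over 0.5 in 5 of them, *Prkag3*, *Map1lc3b*, *Tfe3*, *Lamp2* and *Ctsl* (16.7%, beside 16.5%). These 5 values are means of probes that disagree beyond the scanner error.

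The level of all values depended on the scaling. When the arrays were scaled to 8 spike-in probes, every fold change fell by 0.18, and the median of all genes lay at -0.15. The members then had a median of -0.12, with 11 above 0 and 35 below. The LC3 and GABARAP genes stayed at 0.098 and *Prkag2* was at -0.83. Relative to the all-gene median, no value changed.

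**Figure D4:**
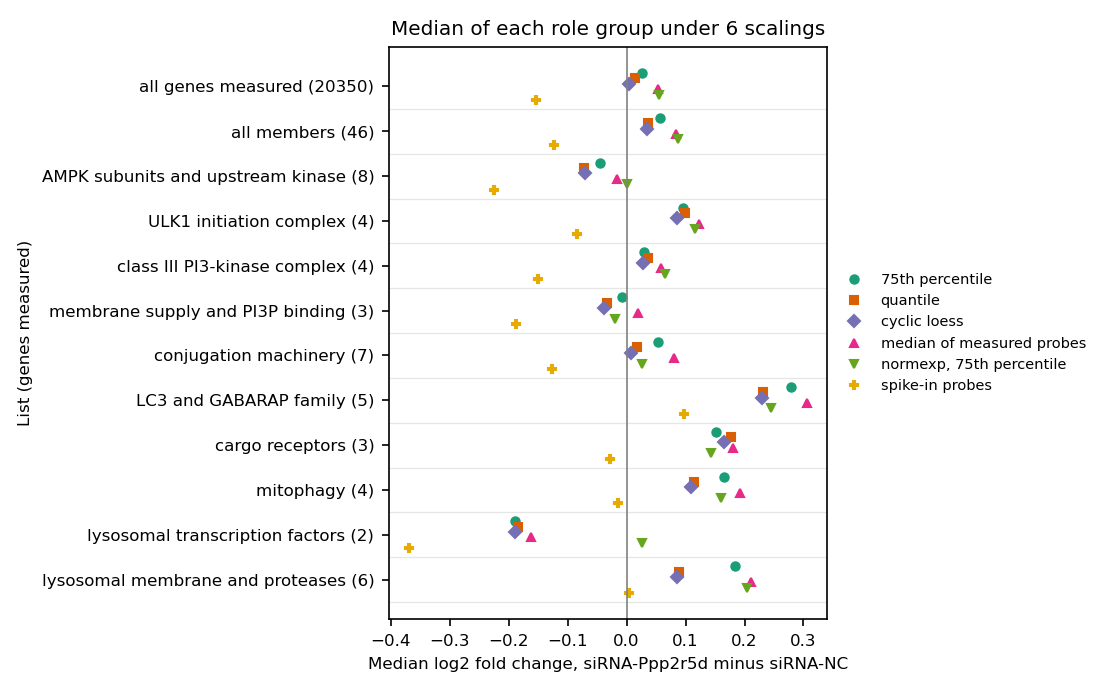
Median log2 fold change (horizontal axis) of all genes, all members and each of the 10 role groups under 6 scalings, 1 symbol each, with the number of genes measured in brackets. The LC3 and GABARAP family lies farthest to the right under every scaling shown, from 0.098 to 0.31, while spike-in scaling moves most other groups below 0.

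A list of 134 other genes of the same pathways was read in the same way, and 127 were measured on both arrays. Their median was 0.095, with 86 above 0 and 41 below, or -0.085 under spike-in scaling. At least 1.5-fold higher were 4 genes and 1 was lower, beside 3.36% and 4.64% of all genes. *Atp6v0d2*, a subunit of the proton pump known from osteoclasts and macrophages, was the 1 gene past 2-fold, with intensities of 584 and 1218 at its brightest probe and a log2 fold change of 1.27. *Fnip2*, a partner of AMPK and folliculin, had 2706 and 3992 (0.87). *Nrbf2*, which joins the *Atg14*-containing kinase complex, had 2499 and 3639 (0.73), and *Tmem74*, a lysosomal inducer of autophagy, had 608 and 934 (0.76). *Cd68*, a lysosomal glycoprotein of macrophages, had 1086 and 546 (-0.77). *Atp6v0d2* and *Cd68* are both abundant in macrophages and lay on opposite sides of 0.

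By group, the subunits of the V-ATPase, the pump that acidifies lysosomes, had the highest median, 0.26, with 16 of 18 above 0, or 0.18 after quantile normalization and 0.082 with 12 of 18 above 0 under spike-in scaling. Without *Atp6v0d2* the subunits lay between -0.39 (*Atp6v0e2*) and 0.53 (*Atp6v1a*). The lysosomal membrane proteins had a median of 0.16 over 12 genes, the autophagy machinery 0.11 over 27, the cargo receptors 0.075 over 12, the hydrolases 0.073 over 28 and the cathepsins 0.049 over 7. AMPK signalling partners lay at -0.019 over 22 genes, with 10 above 0 and 12 below. Spike-in scaling put each of these other medians below 0. *Mitf*, the 1 MiT/TFE factor measured, was at -0.083. *Rubcn* was not a gene name of the array. *Ctss* was well above background with siRNA-*Ppp2r5d* alone, with 8.20 and 14.1, and *Dapk1*, *Ctsc*, *Cts7*, *Mcoln3* and *Tfec* were above background on neither array.

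**Figure D5:**
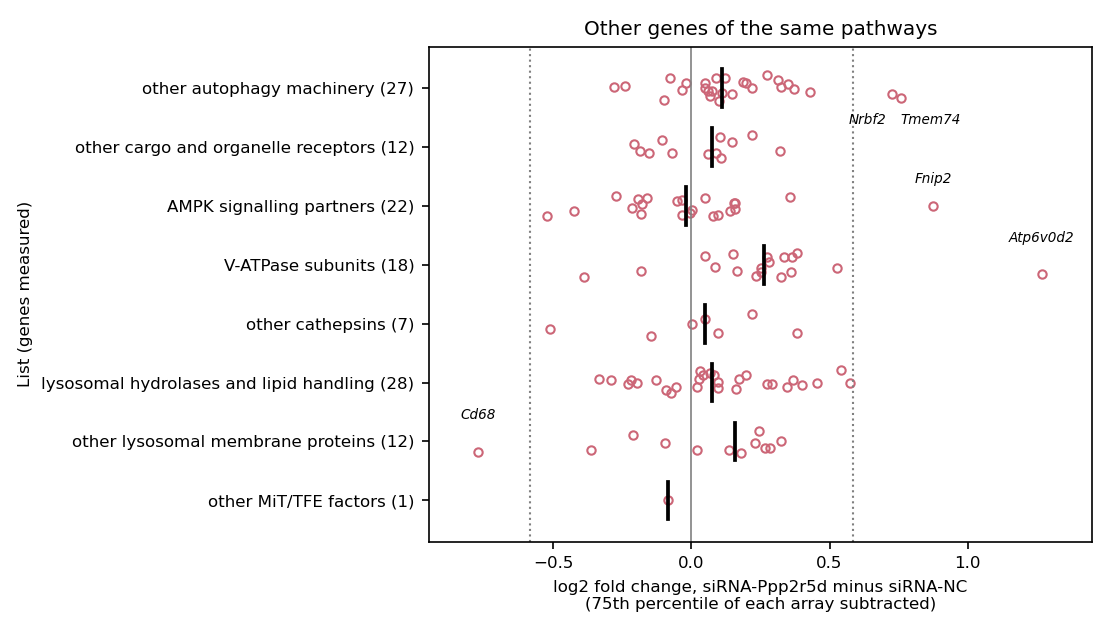
Log2 fold change (horizontal axis) of 127 other genes of the same pathways, 1 open circle each, by list, with the number measured in brackets. Black ticks are list medians and dotted lines mark 1.5-fold; the V-ATPase subunits have the highest median, 0.26, and *Atp6v0d2* lies at 1.27.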

How the data were processed

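RNA of MCMs given siRNA-NC or siRNA-*Ppp2r5d* was hybridized to 1 one-colour Agilent array per condition, and the groups were taken from the labels. Per the labels the arrays were read by Agilent Feature Extraction 10.7.1.1, and the files that the authors deposited give a background-corrected intensity per spot without normalization across arrays. A deposited table holds log2 values of 56605 probes, which lay a median of 1.33e-06 from a quantile normalization of the intensities. Its column medians were both 5.019. Coordinates of probes in the files are of build mm9.

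From the intensities, control spots and outlier spots (126 and 95) were left out, spots of a probe were averaged as log2 values, and each array was scaled to its 75th percentile over the remaining probes. Of 59305 spots, 35544 and 35174 were well above background and 0 were saturated. The number of arrays limits the precision. Probes well above background on both arrays were averaged per gene name. Intensities of different probes were ranked as bright or dim and summed over markers, and were not read as transcript levels. The steps were tested on simulated data.

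The members and lists were chosen with earlier results of these data known. Values on both arrays were given for members past 1.5-fold or on 1 array alone, for members whose probes had opposite directions or differed by over 0.5, and for every AMPK, LC3, GABARAP, receptor and lysosomal gene. Of the other pathway genes, those past 1.5-fold were named. Further genes were picked with their values in view.

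Alternatives were quantile normalization, the median of measured probes, cyclic loess, spike-in scaling (8 E1A probes, each against itself), the deposited log2 table of the authors, normexp (offset 50), no filter on dim probes, an intensity of at least 50, outlier spots kept, the probe of highest mean signal, and bounds for genes measured on 1 array. Software was limma 3.58.1 (R 4.3.3) for normalization, pandas 2.3.3 and NumPy 2.4.6 (Python 3.11.15) for the gene values, and matplotlib 3.10.9 for plots.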

Additional observations from a re-analysis of the deposited data

How the results depend on the processing

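The median log2 fold change of the members was 0.056 and became -0.12 under spike-in scaling and 0.15 when each gene was read by its brightest probe alone. That of the other pathway genes was 0.095 and became -0.085 under spike-in scaling and 0.049 under cyclic loess. With the brightest probe, 1 member was at least 2-fold lower, *Prkag3*, and 2 were at least 1.5-fold lower. Under spike-in scaling, 0 members were at least 1.5-fold higher and 2 were at least 1.5-fold lower, and under normexp with an offset of 50, 0 were at least 1.5-fold higher. For these counts and medians, the other alternatives stayed within 1.5 times the count or within the median SD of 0.039 between spots. The sign of 19 of 46 members changed under spike-in scaling and of 0 to 5 under each of the other 10 alternatives. Over all genes, the 2-fold threshold was passed upwards by 180 and downwards by 218, beside 56 and 44 under normexp, 957 and 1119 with no filter on dim probes, 107 and 121 at an intensity of at least 50, and 108 and 415 under spike-in scaling. No paired analysis was possible because each condition had a single array, and for the same reason none could be left out.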
